A study of Homo sapiens with 15 samples.

Results

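Hypoxia response genes are the transcripts that cells raise when oxygen falls, and 33 of them were followed across xenograft tumors that carried 5 different constructs. The members were a list of known targets of hypoxia-inducible factor (HIF), and they were found on the array through the RefSeq accession of each probe. All 33 genes were present, read by 41 probes, among 25063 genes with a usable probe. That total, and every share of all genes below, also counts transcripts without a gene symbol, each under its own name. Of the 34127 probes, 8705 had no symbol. Each of the 41 probes passed the filter on dim probes, so no member was lost to it. RNA came from tumors of HCT116 cells, a human colon carcinoma line, grown in athymic nude mice, and each of 15 one-color Agilent arrays held the RNA of 1 tumor. There were 3 tumors for each construct, namely the empty vector, wild-type MOAP-1, MOAP-1 with 1 of its lysines changed to arginine (K264R or K278R), and RASSF1A. In every group the HCT116 cells had received a plasmid by transient transfection before injection, and the line also has its own MOAP1 and RASSF1 genes. Mouse cells of the host remain in such tumors, and nothing in the labels says which tumors shared a mouse, so p values measure the spread between these tumors.

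HIF is a pair of proteins, an oxygen-labile alpha subunit and the stable partner ARNT, that binds short motifs near its targets. With oxygen present, prolyl hydroxylases of the EGLN family mark the alpha subunit, VHL then has it degraded, and its targets fall. The targets move glucose into the cell and through glycolysis, hold pH, build vessels, modify collagen, and slow growth, and in solid tumors they are read as signs of poorly perfused tissue.

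The motif that HIF contacts has the core RCGTG, where R is A or G, and promoter sequence shows how unevenly it is spread over the members. RefSeq promoters of the build GRCh38.p14 were at hand for 27 of the 33 genes, 35 promoters in all, and the 250 bases before each start were searched for ACGTG and GCGTG on both strands. One or the other occurred in 29 of these 35 promoters (82.9%), against 43.2% of all 35116 promoters in the table. ACGTG was present in 57.1% of member promoters and in 18.5% of all, and GCGTG in 57.1% and 32.2%. The palindrome CACGTG, which holds ACGTG on both strands and is counted as 2 matches, occurred in 4 of the 35 (11.4%, against 6.34%). The stretches below are the 250 bases before the start of 4 genes that were called lower in the tumors labelled RASSF1A (DDIT4, PFKFB4, BHLHE40, and CA12, the last mostly from background readings) and of 2 that did not pass the test there (CA9 and BNIP3). Every match on either strand is in capitals.
DDIT4: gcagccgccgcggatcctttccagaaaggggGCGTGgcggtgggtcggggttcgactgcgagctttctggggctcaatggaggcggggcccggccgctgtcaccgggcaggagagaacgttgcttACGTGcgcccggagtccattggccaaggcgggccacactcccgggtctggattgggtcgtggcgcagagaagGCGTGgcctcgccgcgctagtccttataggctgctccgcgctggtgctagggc
PFKFB4: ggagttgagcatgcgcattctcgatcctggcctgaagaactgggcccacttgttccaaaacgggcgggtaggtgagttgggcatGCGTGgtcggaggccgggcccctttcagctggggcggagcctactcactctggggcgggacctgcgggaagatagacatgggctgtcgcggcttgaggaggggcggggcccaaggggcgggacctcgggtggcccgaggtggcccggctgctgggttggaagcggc
BHLHE40: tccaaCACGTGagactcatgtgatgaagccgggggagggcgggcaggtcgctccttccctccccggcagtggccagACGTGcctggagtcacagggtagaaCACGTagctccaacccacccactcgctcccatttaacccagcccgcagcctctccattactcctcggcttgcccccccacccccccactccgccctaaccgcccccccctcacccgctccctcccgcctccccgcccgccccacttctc
CA12: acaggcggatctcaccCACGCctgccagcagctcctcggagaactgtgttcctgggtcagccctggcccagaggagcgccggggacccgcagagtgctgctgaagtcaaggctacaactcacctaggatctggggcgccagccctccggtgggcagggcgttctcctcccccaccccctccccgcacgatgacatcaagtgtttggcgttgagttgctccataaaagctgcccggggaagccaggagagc
CA9: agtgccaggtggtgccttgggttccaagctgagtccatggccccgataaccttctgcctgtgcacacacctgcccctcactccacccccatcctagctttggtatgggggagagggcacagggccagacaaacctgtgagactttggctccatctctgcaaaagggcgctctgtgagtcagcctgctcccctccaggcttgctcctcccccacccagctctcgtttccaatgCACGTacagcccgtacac
BNIP3: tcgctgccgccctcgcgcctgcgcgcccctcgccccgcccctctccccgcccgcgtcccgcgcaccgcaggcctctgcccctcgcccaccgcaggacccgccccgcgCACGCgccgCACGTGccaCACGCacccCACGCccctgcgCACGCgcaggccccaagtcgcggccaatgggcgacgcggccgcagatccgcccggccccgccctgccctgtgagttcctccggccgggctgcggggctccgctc
They lie at chr10:72273674-72273923, plus strand (DDIT4), chr3:48556804-48557053, minus strand (PFKFB4), chr3:4979187-4979436, plus strand (BHLHE40), chr15:63381847-63382096, minus strand (CA12), chr9:35673678-35673927, plus strand (CA9), and chr10:131981924-131982173, minus strand (BNIP3). DDIT4 holds 3 matches, BHLHE40 holds 4, and PFKFB4 and CA12 hold 1 each. BNIP3 holds 6 and CA9 holds 1. Whether the number of matches is related to the changes described below was not tested. A match describes these letters and not a bound site, and no promoter of SLC2A3, NDRG1, ANKZF1, or VEGFA is shown.

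Levels are given as log2 of the processed signal minus the 75th percentile of the array, so that 0 is the 75th percentile of that array and a difference of 1 is a doubling. The 75th percentile ranged from 496 to 1402 and 85.1% to 93.1% of spots were well above background, with no spot saturated. As a check of the labels, the level of the MOAP1 probe was -0.18, -0.53, and -0.13 with vector against 0.34, 0.71, and 0.71 with MOAP-1, and it was -0.48, -0.52, and -0.23 in the tumors labelled RASSF1A. The K264R and K278R tumors read between 0.11 and 0.53. The single RASSF1 probe read 1.56, 1.55, and 1.59 in the tumors labelled RASSF1A and 1.52 to 1.94 in the other 12, so it was not raised by label (-0.19, SE 0.08, limma adjusted p = 0.101). The transfection was transient, so the label alone does not fix what this probe should read. Where that probe sits relative to the introduced coding sequence is not known here. The group is therefore called the tumors labelled RASSF1A, and every direction below rests on that label. All 8 markers of colon epithelium were well above background in every tumor, and none of them was called in RASSF1A against the rest.

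Some of the hypoxia response genes were lower in the tumors labelled RASSF1A than the mean of the other 4 constructs, and most were not called. Against vector alone, 0 of the 33 were called. A gene was called when its main probe, the brightest, changed by at least 1.5-fold with a Benjamini-Hochberg adjusted p below 0.05 over all kept probes in limma. Adjusted p values below come from this fit. By that rule 8 of the 33 genes were lower and 0 were higher, where 7.96% of all genes were lower and 5.37% higher. The list was chosen with earlier results of these data known, so its counts beside all genes are a description and not independent evidence. Of the 8, CA12 was mostly at background in the tumors labelled RASSF1A, and among the 31 members well above background on all 15 arrays 7 were lower, against 7.95% of all such genes. The median change of the 33 was -0.25, and that of all 25063 genes was 0.04. In 3 of the 33 (SLC2A3, NDRG1, and MXI1) all RASSF1A values lay below all 12 others, against 0.742% of all genes, and in 0 above them, against 2.83%. At an unadjusted p below 0.05, 12 of the 33 differed in either direction, which is no larger a share than the 43.3% of all genes. At any p, 30 of the 33 main probes were below 0, against 44.9% of all genes. Normexp, a model of the local background, brought the 33 genes to a median of -0.21 and all genes to -0.20, so that the distance between them was gone, whereas the same model without spots of extreme local background gave -0.25 and 0.09. By an F test over the 5 constructs, 10 of the 33 differed (30.3%), which is a smaller share than the 42.4% of all genes.

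The lower level was not shared by all 3 tumors of the label. Set against the 12 tumors of the other constructs, RASSF1A tumor 1 had 15 of the 33 genes below their mean (median 0.00), tumor 2 had 30 (median -0.51), and tumor 3 had 31 (median -0.29). The same medians over all genes were 0.03, 0.06, and 0.02. Tumor 2 held the lowest of the 15 values for 19 of the 33 genes, while 8.94% of all genes were lowest there. Tumors 1 and 2 were hybridized on a slide of their own and scanned on a later day than the other 13, and tumor 3 shared its slide with the 3 vector tumors. The MOAP-1, K264R, and K278R tumors were all on other slides, so against those constructs slide and construct cannot be told apart. With the scan day as a block, the comparison rests on tumor 3 alone, and 2 of the 33 genes were called lower, SLC2A3 and VEGFA, against 1.06% of all genes. Without tumor 2 the count was 5, against 6.93% of all genes, with ANKZF1, DDIT4, NDRG1, PFKFB4, and SLC2A3 called. In these bulk tumors, fewer hypoxic cells and less RNA of these genes per cell cannot be told apart.

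**Figure D1:**
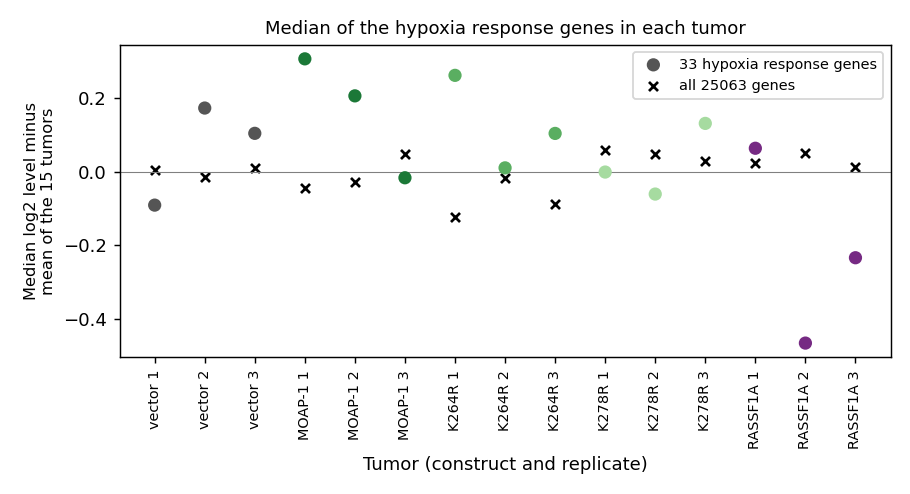
Median over the 33 hypoxia response genes (filled points, colored by construct) and over all 25063 genes (crosses) of the log2 level minus the mean of the 15 tumors, for each tumor on the horizontal axis. RASSF1A tumors 2 and 3 are the lowest, at -0.47 and -0.23, and RASSF1A tumor 1, at 0.06, lies among the tumors of the other constructs.

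Glucose entry held the change with the lowest adjusted p of the 33. SLC2A3 encodes GLUT3, a high-affinity glucose transporter, and its main probe read -3.69, -4.33, and -3.15 in the tumors labelled RASSF1A. It read -2.93, -2.75, and -2.87 in the vector tumors, -0.97, -0.70, and -1.07 with MOAP-1, -1.32, -0.92, and -1.38 with K264R, and -1.92, -1.84, and -1.88 with K278R. In order of level the constructs ran MOAP-1, K264R, K278R, vector, and RASSF1A, and only the values of the first pair overlapped. Against the other 4 constructs the change was -2.01 (SE 0.18, 4.03-fold lower, limma adjusted p = 5.46e-05). The second probe moved by -1.89 (SE 0.21, adjusted p = 7.18e-05) and also had its 3 RASSF1A values below the other 12. Against the vector tumors alone the change was -0.87 (SE 0.23, adjusted p = 0.341). SLC2A14 is a near-identical copy of SLC2A3, and whether the probes also bind its transcript was not tested. The other transporter of the list, SLC2A1 (GLUT1), changed by -0.21 (SE 0.12, adjusted p = 0.181) against the rest.

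Glycolytic flux is set in part by the bifunctional enzymes PFKFB3 and PFKFB4, which make and remove the activator of phosphofructokinase. PFKFB4 read -0.47, -0.67, and 0.03 in the tumors labelled RASSF1A, and the other 12 ranged from -0.11 to 0.75 with a median of 0.38. It was lower by label (-0.78, SE 0.14, 1.71-fold, adjusted p = 0.000856), with tumor 3 inside the range of the others. The vector mean of PFKFB4 (0.14) lay between the mean of the tumors labelled RASSF1A (-0.37) and that of each MOAP-1 construct. PFKFB3 (-0.20, adjusted p = 0.134), the glycogen branching enzyme GBE1 (0.03, adjusted p = 0.866), and PDK1, a kinase that inhibits pyruvate dehydrogenase (-0.30, adjusted p = 0.173), did not pass the test.

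Carbonic anhydrases at the cell surface hold pH in acid tumors. CA12 read -7.58, -9.07, and -6.62 in the tumors labelled RASSF1A and -8.00, -7.81, and -5.01 in the vector tumors. With MOAP-1 it read -5.20, -5.15, and -4.68, with K264R -5.45, -5.30, and -5.39, and with K278R -5.05, -4.93, and -4.78. The vector and RASSF1A tumors overlapped, and the MOAP-1, K264R, and K278R tumors were above all tumors labelled RASSF1A. The signal was faint, well above background in 1 of 3 tumors labelled RASSF1A and in 1 of 3 vector tumors, and in all 3 of each MOAP-1 construct, through which the probe passed the filter. Its log2 differences therefore rest mostly on background readings and are given without a test, although the gene is among the counts of calls. Against the rest the difference was -2.20, without tumor 2 it was -1.54, and under normexp it was -0.68, or -0.11 without spots of extreme local background. CA9, the carbonic anhydrase best known as a hypoxia marker, read -2.14, -2.50, and -1.74 against a range of -2.49 to -1.05 in the other 12, a difference of -0.53 (SE 0.23, adjusted p = 0.0984). It was called in 1 comparison, RASSF1A against MOAP-1 (-0.87, SE 0.30, adjusted p = 0.0347).

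**Figure D2:**
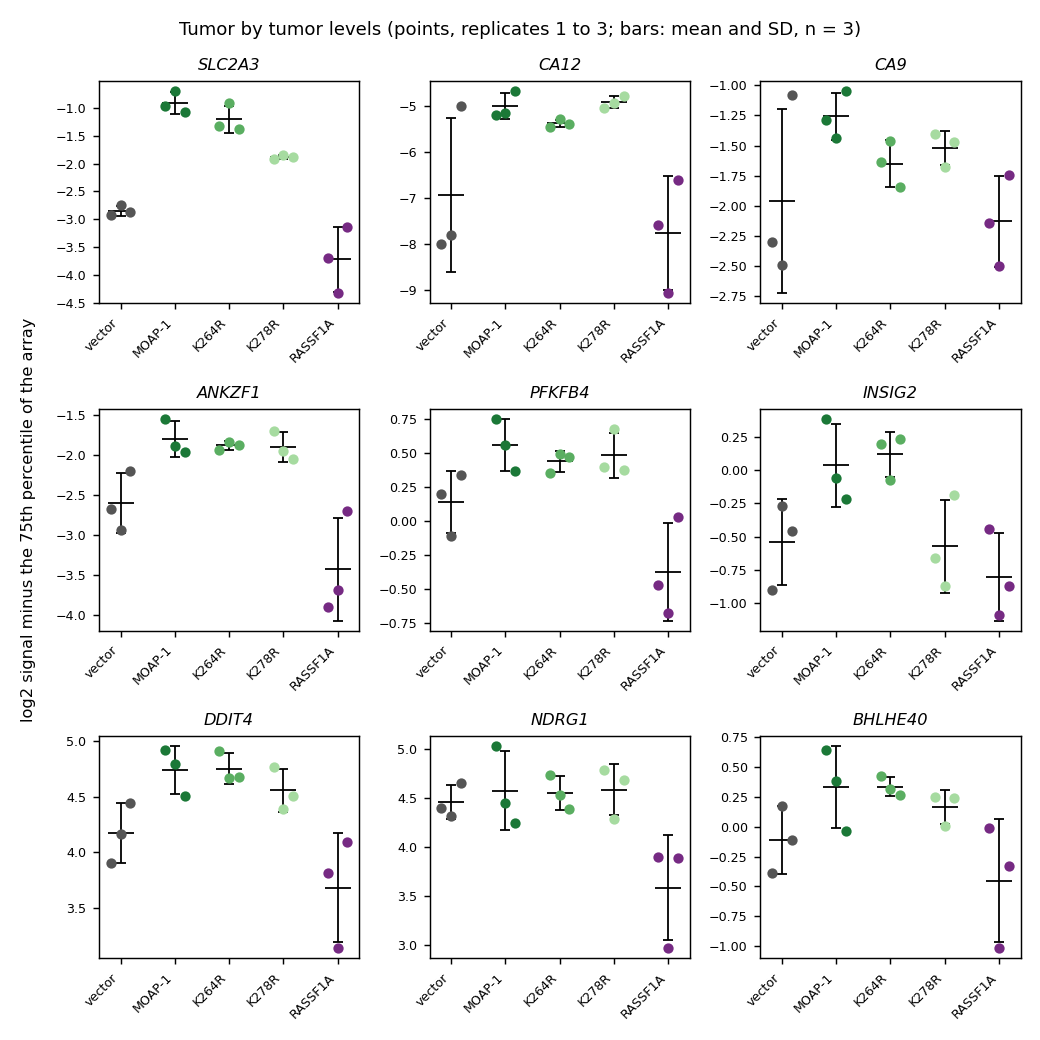
Level of 9 hypoxia response genes in each tumor (vertical axis, log2 signal minus the 75th percentile of the array; horizontal axis, construct). Points are the tumors, replicates 1 to 3 from left to right, and bars are the mean and SD of 3. SLC2A3 and NDRG1 have all 3 RASSF1A points below every other point, and SLC2A3 and ANKZF1 are also lower with the vector than with MOAP-1.

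The other 4 called members with intracellular roles were NDRG1, DDIT4, BHLHE40, and ANKZF1. NDRG1, a differentiation-related gene that hypoxia raises strongly, read 3.90, 2.96, and 3.89 in the tumors labelled RASSF1A and 4.25 to 5.03 in the other 12 (median 4.50). The groups did not overlap, and the change was -0.96 (SE 0.20, 1.95-fold, adjusted p = 0.0024). Against vector alone it was -0.87 (SE 0.25, adjusted p = 0.341), and the MOAP-1 constructs differed from vector by 0.10 to 0.13. DDIT4 (REDD1), an inhibitor of mTORC1, read 3.81, 3.13, and 4.09 against 3.90 to 4.92 (median 4.59), a change of -0.88 (SE 0.17, 1.84-fold, adjusted p = 0.00162), with tumor 3 above the lowest vector tumor. BHLHE40 (DEC1), a transcriptional repressor, read -0.01, -1.02, and -0.33 against -0.39 to 0.65 (median 0.25). Its change of -0.63 (SE 0.18, 1.55-fold, adjusted p = 0.0174) rests on tumor 2, without which it was -0.35 and not called. ANKZF1, which acts on stalled ribosomes and at mitochondria, read -3.90, -3.70, and -2.70 against -2.94 to -1.55 (median -1.95), a change of -1.38 (SE 0.21, 2.61-fold, adjusted p = 0.000312), and its tumor 3 lay inside the range of the others. The vector means of DDIT4 (4.17), BHLHE40 (-0.11), and ANKZF1 (-2.61) lay between those of the tumors labelled RASSF1A and of each MOAP-1 construct. None of these genes was called in RASSF1A against vector.

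Of the secreted and vessel-directed members, VEGFA, the main growth factor of vessels, was the only one called against the rest. Its main probe read 0.28, -0.45, and -1.33 in the tumors labelled RASSF1A and -0.08 to 0.79 in the other 12 (median 0.29). The change was -0.77 (SE 0.23, 1.70-fold, adjusted p = 0.0211). Tumor 1 sat near the median of the others and tumors 2 and 3 were below all 12, and the call was lost without tumor 2 (-0.79) and without tumor 3 (-0.35). The vasodilator peptide ADM (-0.23, adjusted p = 0.401), the lipase inhibitor ANGPTL4 (-0.22, adjusted p = 0.431), and the glycoprotein STC2 (-0.14, adjusted p = 0.388) were within the spread of the tumors.

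Many of the canonical targets did not pass the test. The mitophagy receptor BNIP3 (-0.08, SE 0.15, adjusted p = 0.71), the HIF-regulating oxygen sensors EGLN1 (-0.04, SE 0.11, adjusted p = 0.832) and EGLN3 (0.03, SE 0.14, adjusted p = 0.911), and ANKRD37 (-0.05, SE 0.19, adjusted p = 0.875) lay near 0. The 95% interval for BNIP3 ran from -0.42 to 0.25 and that for EGLN1 from -0.29 to 0.21, so a 1.5-fold change in either lies outside it. BNIP3L, a second mitophagy receptor, changed by -0.32 (SE 0.18, adjusted p = 0.189) at its main probe, with an interval from -0.72 to 0.07. The collagen-modifying members P4HA1, P4HA2, PLOD1, PLOD2, and LOX changed by -0.37 to -0.15 at their main probes, none of them called. INSIG2, which retains sterol sensors in the endoplasmic reticulum, had an adjusted p of 0.0277 but a change of -0.56, short of 1.5-fold. RORA was faint, well above background on 13 of 15 arrays, with an SE of 0.69. FAM162A, a mitochondrial protein linked to hypoxic cell death, had the highest value of the 33 (0.21, adjusted p = 0.162).

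**Figure D3:**
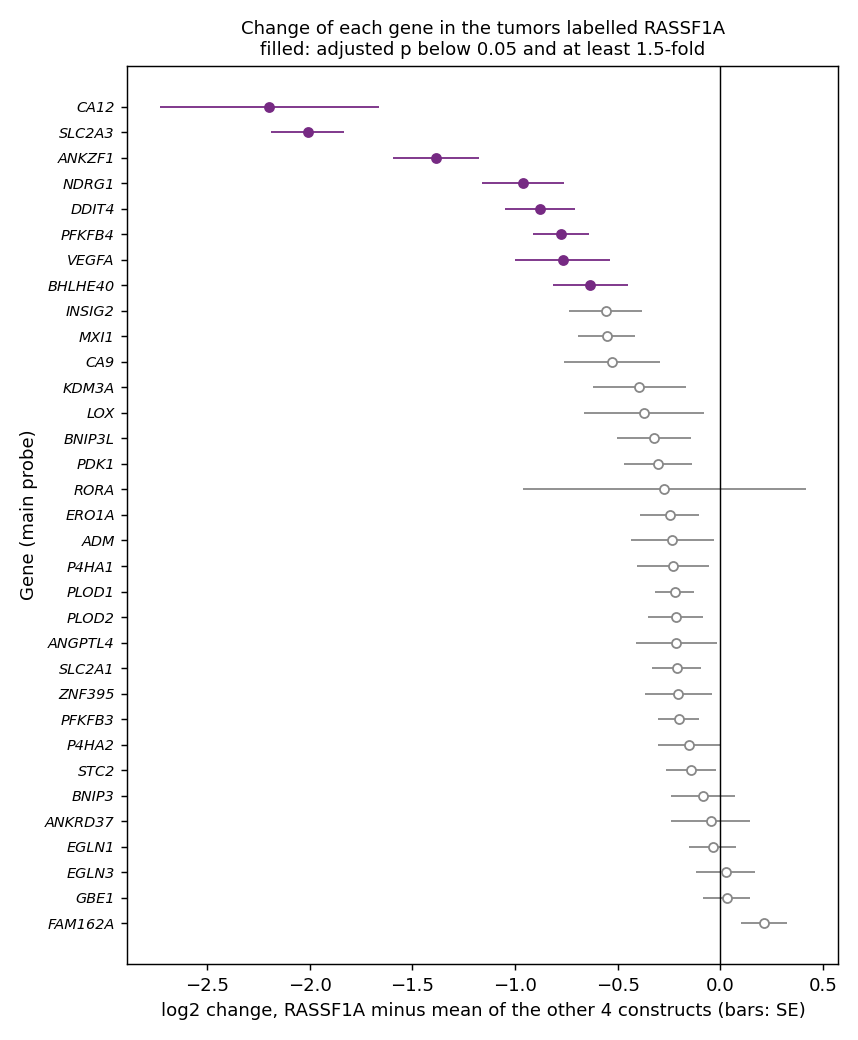
Log2 change of each of the 33 genes at its main probe in the tumors labelled RASSF1A against the mean of the other 4 constructs (horizontal axis, bars 1 SE; genes on the vertical axis). Filled points are the 8 called genes, all below 0, and FAM162A, at 0.21, is the highest.

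Each MOAP-1 construct was also compared with the tumors labelled RASSF1A on its own. These comparisons share the RASSF1A arrays, so their values are given side by side and not as independent counts. The tumors labelled RASSF1A shared no slide with the MOAP-1, K264R, or K278R tumors. Slide and construct therefore cannot be told apart in these 3 comparisons. Against MOAP-1, 11 of the 33 were lower, and 11.3% of all genes were. They included SLC2A3 (-2.81, SE 0.23, adjusted p = 3.96e-05) and ANKZF1 (-1.63, SE 0.26, adjusted p = 0.000447). Against K264R, 9 were lower (10.5% of all genes), among them SLC2A3 (-2.52, SE 0.23, adjusted p = 2.28e-05) and ANKZF1 (-1.55, SE 0.26, adjusted p = 0.000555). Against K278R, 6 were lower (9.98% of all genes), among them SLC2A3 (-1.84, SE 0.23, adjusted p = 0.000266) and ANKZF1 (-1.53, SE 0.26, adjusted p = 0.00116). CA12 is in each of these counts, with differences of -2.75, -2.38, and -2.84 that rest mostly on background readings, the middle one turning to 0.27 under normexp without spots of extreme local background. Without CA12 the counts were 10, 8, and 5 of 32. By the adjusted t-test of the methods, 1, 4, and 0 of the 33 were lower, where 6.36%, 6.62%, and 0.327% of all genes were. None of the 33 was higher in these 3 comparisons, where 8.61%, 11.9%, and 4.79% of all genes were. INSIG2 read -0.44, -1.09, and -0.87 in the tumors labelled RASSF1A, and it was called against MOAP-1 (-0.84, SE 0.23, adjusted p = 0.0109) and K264R (-0.92, SE 0.23, adjusted p = 0.00589) but not against K278R (-0.23, adjusted p = 0.48).

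Against the vector tumors, limma called 0 of the 33 genes and 0 of all 25063 genes (0%). At an unadjusted p below 0.05, 7 of the 33 were lower, against 5.94% of all genes, and the adjusted t-test of the methods also called 0. The median change was -0.31 for the 33 and 0.03 for all genes, and 30 of the 33 were below 0, against 44.4% of all genes. The median of the 33 was -0.15 without RASSF1A tumor 2 and -0.44 without RASSF1A tumor 1. Within the slide that holds RASSF1A tumor 3 and the vector tumors, 29 of the 33 were below the vector mean (median -0.24), against 40.8% of all genes. In that setting, which holds 1 tumor labelled RASSF1A, VEGFA had the lowest value (-1.40). Leaving out RASSF1A tumor 3, so that only the tumors of the later scan day and their own slide remained, brought 4 lower calls against vector, where 3.43% of all genes were lower, namely SLC2A3 (-1.16), ANKZF1 (-1.19), NDRG1 (-1.03), and PFKFB4 (-0.71).

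Between the MOAP-1 constructs and vector, the shares of hypoxia response genes called higher were close to those of all genes. MOAP-1 tumors had 3 of the 33 higher, where 8.51% of all genes were, namely SLC2A3 (1.94, SE 0.23, adjusted p = 0.000189), ANKZF1 (0.81, SE 0.26, adjusted p = 0.0349), and CA12. K264R tumors had 3 higher (8.01% of all genes), SLC2A3 (1.65, SE 0.23, adjusted p = 0.000209), ANKZF1 (0.73, SE 0.26, adjusted p = 0.0477), and INSIG2 (0.66, SE 0.23, adjusted p = 0.0373). INSIG2 read 0.20, -0.08, and 0.23 with K264R and -0.90, -0.27, and -0.46 with vector. K278R tumors had 2 higher (6.63% of all genes), SLC2A3 (0.97, SE 0.23, adjusted p = 0.0113) and CA12. CA12, at background in 2 of the 3 vector tumors, differed by 1.93 with MOAP-1 and 2.02 with K278R, and without it the counts were 2, 3, and 1 of 32. Under normexp 0 of the 33 were called in all 3 comparisons, where 1.77%, 3.17%, and 0.00399% of all genes were. In that setting CA12 (-1.42 with MOAP-1 and -1.31 with K278R), ANKZF1 (-0.13 with MOAP-1), and SLC2A3 (-0.12 with K278R) turned sign. None of the 33 was lower at its main probe in these 3 comparisons, where 6.99%, 10.5%, and 3.42% of all genes were. Without vector tumor 1, and without vector tumor 2, neither CA12 nor ANKZF1 was called in any of the 3 comparisons, and SLC2A3 was called in each. Without vector tumor 3 the counts were 5, 6, and 4, where 17.4%, 21.2%, and 11.9% of all genes were called. The 6 included RORA, which was lower with K264R (-2.19). Lower with K278R were SLC2A1 (-0.63) and ANKRD37 (-0.77) without vector tumor 1, and STC2 (-0.61) without K278R tumor 3. The count also fell to 1 without MOAP-1 tumor 2 or 3, without K264R tumor 1 or 3, and without K278R tumor 1 or 2, each in its own comparison. In those settings 9.57% to 16.1% of all genes were called. The median change of the 33 was 0.12, 0.05, and -0.10 for MOAP-1, K264R, and K278R, and none of these was stable. For MOAP-1 it was 0.31 under quantile normalization, 0.05 without MOAP-1 tumor 1, and 0.28 without MOAP-1 tumor 3. It turned to -0.05 for K264R without K264R tumor 1, to -0.02 without vector tumor 1, and to 0.07 for K278R without K278R tumor 2. The vector tumors and the MOAP-1, K264R, and K278R tumors were on different slides, so slide and construct cannot be told apart here.

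Several members were read differently by different probes, which limits any statement about the gene as a whole. MXI1, a MAX-binding antagonist of MYC and a HIF target, had 3 probes. Its main probe read 0.13, -0.26, and 0.15 in the tumors labelled RASSF1A, below all other 12 tumors (0.20 to 1.00), a change of -0.55 (SE 0.14, adjusted p = 0.00736) that was under 1.5-fold. Probe A_33_P3383029, which the study had itself listed from these samples so that it is not independent evidence, read 1.18, 1.42, and 1.11 with vector and 0.75, 0.71, and 0.86 in the tumors labelled RASSF1A. It read 0.02, -0.07, and 0.07 with MOAP-1, -0.45, -1.13, and -0.61 with K264R, and -0.03, 0.24, and 0.07 with K278R. It was thus lower than vector with MOAP-1 (-1.23, SE 0.15, adjusted p = 0.000233), K264R (-1.96, SE 0.15, adjusted p = 2.88e-05), and K278R (-1.15, SE 0.15, adjusted p = 0.00149). In RASSF1A against the rest it was higher (0.62, SE 0.12, adjusted p = 0.00152), opposite in sign to the main probe. Against MOAP-1 and against K264R both probes were called, the main one lower (-0.79 and -0.64) and this one higher (0.77 and 1.50).

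The second VEGFA probe did not follow the main one either. It read 0.02, -0.35, and 0.12 in the tumors labelled RASSF1A, -0.71, -0.92, and -0.93 with K264R, and 0.25, 0.70, and -0.05 with vector. It was lower in K264R than in vector (-1.15, SE 0.23, adjusted p = 0.00222), higher in RASSF1A than in K264R (0.78, SE 0.23, adjusted p = 0.0164), and not called in RASSF1A against the rest (0.19, SE 0.18, adjusted p = 0.449). The main probe changed by -0.72 (adjusted p = 0.0678) in RASSF1A against K264R. For BNIP3L the dimmer probe read -1.91, -2.47, and -1.76 against -1.41 to -0.58 in the other 12, with no overlap (-1.001, SE 0.14, adjusted p = 0.000159), although the main probe was not called. The dimmer PLOD1 probe was also called (-0.91, SE 0.20, adjusted p = 0.00306), and the main PLOD1 probe was not (-0.22, adjusted p = 0.0905). Counting a gene at any of its probes gave 10 of 33 lower, against 10.6% of all genes.

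**Figure D4:**
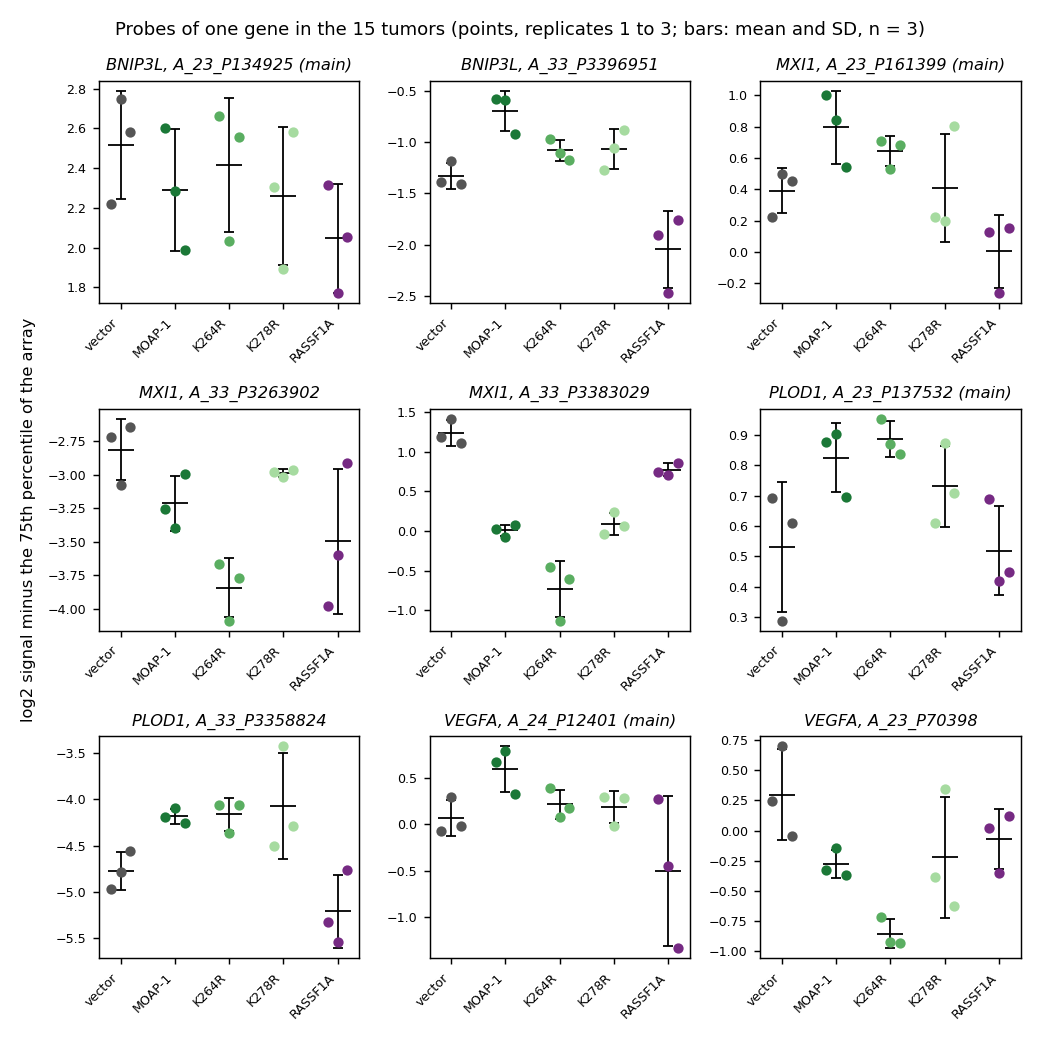
Each panel shows 1 probe of BNIP3L, MXI1, PLOD1, or VEGFA (vertical axis, log2 signal minus the 75th percentile of the array; horizontal axis, construct), with the 3 tumors of a construct as points and their mean and SD as bars. The main MXI1 probe is lowest in the tumors labelled RASSF1A, and probe A_33_P3383029 is highest with vector and lowest with K264R.

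Levels of many of the 33 genes tended to rise and fall together among tumors of the same construct. The mean correlation between 2 members, over the 15 tumors and after the construct means had been removed, was 0.30 across 528 pairs, and 0.03 across all genes. These values share arrays and their scaling, and they are given as a description. The arrays include RASSF1A tumor 2, the lowest for 19 of the 33 genes, and its part in the correlation was not tested. BHLHE40 (r = 0.95), BNIP3 (r = 0.90), ERO1A (r = 0.90), and ADM (r = 0.87) followed the mean of the other members most closely. SLC2A3 (r = 0.41), CA12 (r = 0.39), PFKFB4 (r = 0.25), and ANKZF1 (r = 0.09) followed it less, and LOX (r = -0.39) and RORA (r = -0.69) ran against it. The spread between tumors of 1 construct was wider for the 33 genes, with a median SD of 0.29 against 0.18 over all genes.

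**Figure D5:**
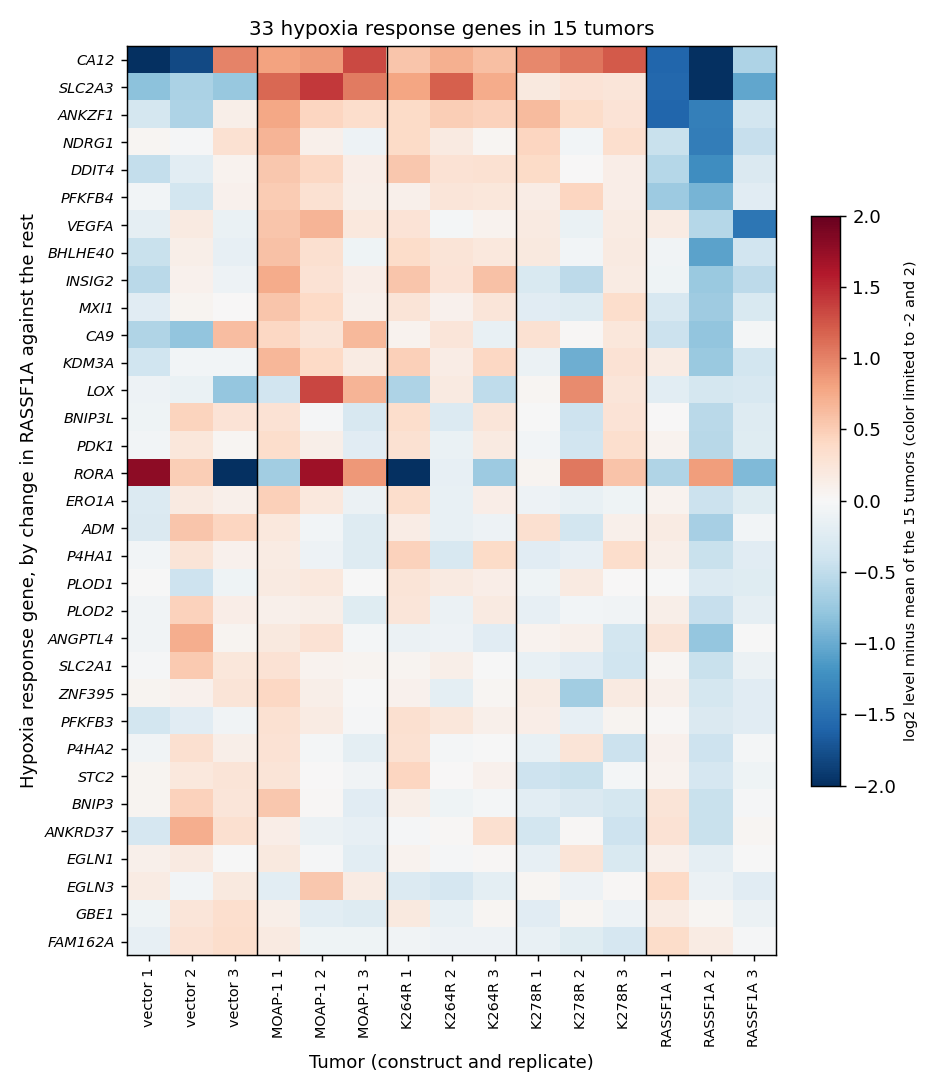
Log2 level of the 33 genes (rows, ordered by their change in RASSF1A against the rest) in the 15 tumors (columns, grouped by construct), minus the mean of the 15 tumors of each gene. RASSF1A tumor 2 is blue for 30 genes and RASSF1A tumor 3 for 32, while RASSF1A tumor 1 is blue for 13, fewer than vector tumor 1 with 26.

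The machinery of oxygen sensing gave mixed readings. Of 9 HIF subunits and sensors, 2 were lower and 1 higher in RASSF1A against the rest, where 7.96% of all genes were lower and 5.37% higher. The lower genes were EGLN2, a prolyl hydroxylase (-1.18, SE 0.22, adjusted p = 0.00131), and ARNT, the stable HIF partner (-0.59, SE 0.13, adjusted p = 0.00318). The higher gene was HIF3A, an alpha subunit often described as a brake on HIF (0.70, SE 0.14, adjusted p = 0.00158). HIF1A itself changed by 0.09 (SE 0.12, adjusted p = 0.624) at its main probe, and a faint second probe changed by -1.15 (SE 0.32, adjusted p = 0.0139). In the tumors labelled RASSF1A against vector, 0 of the 9 were called. There the second HIF1A probe changed by 0.20 (SE 0.40, adjusted p = 0.878). The second HIF1A probe was higher than vector with MOAP-1 (1.86, SE 0.40, 3.63-fold, adjusted p = 0.00436), K264R (2.23, SE 0.40, adjusted p = 0.00112), and K278R (1.28, SE 0.40, adjusted p = 0.0405). The main HIF1A probe was called in none of these comparisons. It changed by 0.006 with MOAP-1 (adjusted p = 0.979), 0.46 with K264R (adjusted p = 0.0337, under 1.5-fold), and 0.13 with K278R (adjusted p = 0.562). ARNT was higher than vector with MOAP-1 (1.01), K264R (1.17), and K278R (0.68), each called. These constructs are part of the mean against which ARNT and the second HIF1A probe were lower in the tumors labelled RASSF1A.

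Among 19 measured genes of a further list of hypoxia-induced genes, mostly enzymes of glycolysis, 5 were lower and 1 was higher in RASSF1A against the rest, and the median was -0.17. Of all genes, 7.96% were lower and 5.37% higher. Lower were the enolases ENO2 (-1.96, SE 0.24, adjusted p = 0.000101) and ENO1 (-1.86, SE 0.30, adjusted p = 0.000438), GAPDH (-1.27, SE 0.22, adjusted p = 0.000751), the hexokinase HK1 (-1.02, SE 0.16, adjusted p = 0.000369), and the lactate dehydrogenase LDHA (-0.88, SE 0.16, adjusted p = 0.000959). Higher was the phosphofructokinase PFKL (2.16, SE 0.24, adjusted p = 7.3e-05). PGK1 (0.12, adjusted p = 0.345), TPI1 (0.06, adjusted p = 0.67), and HILPDA (-0.02, adjusted p = 0.951) did not pass the test. Against vector none of the 19 was called in the tumors labelled RASSF1A.

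Markers of other cells were read beside these genes. The probes were named through human transcripts and the host was a mouse, so how far they read host cells is not known. These values therefore do not measure how much of such cells a tumor held. Of 6 measured fibroblast markers, 4 endothelial, and 5 leukocyte markers, 0 were called in RASSF1A against the rest. The summed fibroblast signal, in multiples of the 75th percentile of the array, ran from 7.997 to 11.4 in the tumors labelled RASSF1A, from 2.02 to 7.64 with vector, from 5.67 to 43.7 with MOAP-1, from 4.62 to 19.3 with K264R, and from 10.8 to 41.3 with K278R. The summed endothelial signal ran from 2.42 to 2.78 in the tumors labelled RASSF1A and from 2.10 to 3.68 over the other constructs, and the leukocyte sum from 5.96 to 6.37 and from 5.19 to 7.83. Of 7 proliferation genes, TOP2A was lower (-1.11, SE 0.21, adjusted p = 0.00128) and the rest were not called. In the tumors labelled RASSF1A against vector, 0 of the 7 were called. In the MOAP-1 constructs against vector, where SLC2A3 and ANKZF1 were called, markers moved as well. With MOAP-1, COL1A1 (2.24), PTPRC (0.72), PCNA (0.61), and TOP2A (1.84) were higher, and the median of the 6 fibroblast markers was 1.85. With K278R, PDGFRB (1.34), PTPRC (0.69), and TOP2A (0.94) were higher, with a fibroblast median of 1.72. With K264R, PCNA (0.69), BUB1 (0.76), and TOP2A (2.11) were higher, with a fibroblast median of 0.50 and no fibroblast marker called. Only 4 of the 6 fibroblast markers were well above background in all 3 vector tumors, so these fibroblast medians may rest partly on background readings. The part of these cells in the hypoxia readings was not tested.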

How the data were processed

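The scanner output that the authors deposited for the 15 arrays holds intensities, with background correction done by Agilent Feature Extraction and nothing scaled between arrays. A GeneSpring table of log2 values that the authors deposited is shifted to the 75th percentile and centered by probe. It served as an alternative only, and entered the reported values through the counts over the alternatives. The reason is that 7 of its 15 columns followed the scanner output of another tumor of their construct and 8 their own.

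Control and outlier spots were left out, log2 intensities were set relative to the 75th percentile of their array, and spots of a probe were averaged (34127 probes). The filter on dim probes asked for signal well above background, as the scanner software calls it, in the 3 tumors of some construct (30585 probes). RefSeq accessions named 25422 probes through a GRCh38.p14 gene table. The other 8705 had no symbol and, where kept, were counted as genes under the array's own name for the transcript. A gene is represented by its brightest kept probe, called its main probe. limma 3.58.1 (R 4.3.3; lmFit and eBayes) was fitted over all arrays with construct as its term, 10 residual degrees of freedom, and Benjamini-Hochberg adjustment over the kept probes of a contrast, after it had been tested on simulated data. A call needed an adjusted p below 0.05 and 1.5-fold. Precision is limited by the number of tumors.

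Values per tumor are given for members called in RASSF1A against the rest, the 3 largest calls of each other contrast, members with probes called in opposite directions, and MXI1. Members and lists were chosen with earlier results of these data known, and CA9, BNIP3L, PLOD1, HIF1A, and the single pathway and marker genes were picked out after their values had been seen. The alternatives tried were quantile normalization, normexp with an offset of 50 on the median spot signal and again without spots above 10 times the median background, other filters on dim probes, outlier spots kept, the deposited log2 table, the slide, scan day, or replicate number as a block, a fit to the compared arrays, array weights, the unpaired t-test of the methods, any kept probe, and leaving out each tumor. A fixed slide block could be fitted for RASSF1A against vector alone. One marker of the erythroid list is not reported here, and no count or sum over that list is given.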

Additional observations from a re-analysis of the deposited data

How the results depend on the processing

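The number of the 33 genes called moved with several choices, and the cause was not tested unless the setting itself gives it. Against the mean of the other 4 constructs the 8 calls became 4 under normexp, 2 with the scan day as a fixed block, and 5 when the methods' t-test was adjusted. Against MOAP-1 the 11 became 5, 3, and 1 under the same settings, against K264R the 9 became 4, 3, and 4, and against K278R the 6 became 1, 2, and 0. MOAP-1 against vector gave 3 as reported, 0 under normexp, 1 by the t-test, and 5 with any kept probe. K264R against vector gave 3 as reported, 0 under normexp, 5 under normexp without extreme spots (3 higher and 2 lower), 1 by the t-test, and 5 with any kept probe. K278R against vector gave 2 as reported, 0 under both normexp settings and by the t-test, and 1 under quantile normalization, with no filter, with the filter on all 15 arrays, with outlier spots kept, with only the arrays compared, and with array weights. RASSF1A against vector stayed at 0 except without 1 tumor. Shares of all genes moved too, given here as reported, under normexp, and by the adjusted t-test. Lower were 7.96%, 3.72%, and 5.16% against the rest and 11.3%, 3.46%, and 6.36% against MOAP-1. Against K264R they were 10.5%, 4.45%, and 6.62%, and against K278R 9.98%, 2.25%, and 0.327%. In K264R against vector, 24.7% of all genes were lower under normexp without extreme spots.

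The t-test of the methods without adjustment, at the 1.5-fold and p threshold, gave 8, 8, 8, 6, and 0 against the rest, MOAP-1, K264R, K278R, and vector, all lower, where 12.6%, 18.9%, 21.6%, 13.2%, and 0.547% of all genes passed in either direction.

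Leaving out each tumor in turn gave 5 to 10 calls against the rest, 8 to 11 against MOAP-1, 6 to 11 against K264R, 6 to 8 against K278R, and 0 to 4 against vector, and 1 to 5, 1 to 6, and 1 to 4 for MOAP-1, K264R, and K278R against vector. Those of 5 and of 4 came without RASSF1A tumor 2 and tumor 3, and the highest 3 against vector without vector tumor 3. The mean over the tumors of a construct of the median of the 33 genes ranged from -0.35 to -0.12 for RASSF1A, 0.01 to 0.12 for vector, 0.11 to 0.26 for MOAP-1, 0.08 to 0.19 for K264R, and -0.02 to 0.05 for K278R.

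Of 856 values for the 42 calls of single genes, 702 remained calls in the same direction, 147 kept the direction without the call, and 7 reversed. CA12 reversed in MOAP-1 against vector (-1.42 under normexp and -0.19 without extreme spots), in K278R against vector (-1.31 and -0.077), and in RASSF1A against K264R (0.27 without extreme spots), and under normexp so did ANKZF1 in MOAP-1 against vector (-0.13) and SLC2A3 in K278R against vector (-0.12). Normexp moved the median of all genes to -0.47, -0.29, and -0.41 for MOAP-1, K264R, and K278R against vector, to -0.44 for RASSF1A against vector, and to -0.28 for RASSF1A against K264R. The split of all called genes in K278R against vector was 1662 higher and 857 lower, and 1042 and 1003 under quantile normalization. With the replicate block, 8 of the 33 genes were called against the rest (13.4% of all genes) and 4 in MOAP-1 against vector (16.1% of all genes). Tumors of the same number correlated from -0.25 to 0.37 after the construct means had been removed, and tumors of different numbers from -0.47 to 0.45. Those numbered 2 all correlated positively, from 0.06 to 0.25. The numbers were not taken as pairs, and whether they mark a shared batch is not known.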
